A study of Mus musculus with 16 samples.

Results

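Blood cells of the embryo arise from mesoderm through a specialized endothelium, and a small network of transcription factors directs that passage. The 10 genes described here are the factors often called the hematopoietic heptad (Tal1, Lyl1, Lmo2, Gata2, Runx1, Erg and Fli1) and their partners Cbfb, Ldb1 and Gfi1. The rule that picks them uses names and no measured value, although it was set with earlier results of these data known. Each array probe was assigned to a gene through its RefSeq target, and where a gene had several probes the brightest on average was taken. All 10 were among the 37154 genes tested, and their probes were well above background on all 16 arrays.

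RNA was prepared from mouse embryonic stem (ES) cells differentiated toward blood in culture. The control line, E14, carries intact Sp1 alleles (Sp1+/+), and the second line, SP1KO, is homozygous for a mutated allele that yields a truncated Sp1 protein lacking the DNA-binding domain (Sp1-/-). The labels give the strain C57BL/6 for both lines and name no further treatment. Flk1+ cells, the mesodermal population that contains the hemangioblast, were purified from embryoid bodies on magnetic columns. The other populations were sorted from blast culture, in which Flk1+ cells turn into blood cells, from floating and adherent cells together. An early hemogenic endothelium (HE1) was KIT+ CD41- Tie2+, a later one (HE2) was KIT+ CD41+ Tie2+, and progenitors were KIT+ CD41+ Tie2-. Both genotypes and all 4 populations were profiled on 2 one-color Agilent arrays each (16 in 8 groups), a number that limits the precision of every comparison.

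The Sp1-/- cells are 1 ES cell line, so loss of Sp1 binding and other differences between the lines cannot be told apart. All Sp1+/+ arrays were on slide 1 and all Sp1-/- arrays on slide 2, so the effects of slide and of genotype cannot be told apart either. The series record calls the replicates independent and biological, as does the study's main text, whereas a figure legend calls the array replicates technical, so p-values may measure only technical spread between samples. Sp1 itself was at a log2 intensity of 12.14 to 12.56 on the Sp1+/+ arrays and 9.03 to 10.29 on the Sp1-/- arrays. The 5 mesoderm markers listed (Kdr, T, Mesp1, Pdgfra and Mixl1) were well above background in Flk1+ cells of both genotypes. Itga2b, which encodes CD41, was at a mean of 10.61 in Sp1+/+ HE1 and 12.08 in Sp1+/+ HE2, so its RNA was also measured in cells sorted as CD41-.

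The factors form a physical network. TAL1 and its relative LYL1 are basic helix-loop-helix proteins that bind DNA with E proteins, and LMO2, which does not touch DNA itself, links them to GATA2 and to LDB1, a dimerizing protein that brings enhancers to promoters. RUNX1 binds DNA with CBFB and is required for hemogenic endothelium to become blood, a step in which the repressor GFI1, a target of RUNX1, silences endothelial genes. ERG and FLI1 are ETS factors of endothelium and blood stem cells, and Sp1 is a ubiquitous zinc-finger protein that binds GC boxes.

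As GC boxes are the known motif of Sp1, promoter windows of these genes were searched for GGGCGG on both strands. The windows are the 250 bases before each start annotated by RefSeq (build GRCm38.p6). They covered 8 of the 10 genes with 16 windows, and 7 of the 16 windows, belonging to 5 genes, held a GC box, against 32.7% of all 32851 windows. Cbfb had 4 matches in its only window. Ldb1 had 4 in its second window, of which 2 overlap each other, and 1 in its first. Tal1 had 3 in its second window, Gata2 had 1 and 2 in its first and second, and Erg had 1 in its first. The windows of Lyl1, Runx1 and Gfi1 held none, which says only that these letters are not in these windows. The GATA motif GATAA was in 3 windows (22.6% of all windows on either strand) and the RUNX motif TGTGGT in 0 (14% of all). Sequences are printed for Cbfb, Ldb1 and Gfi1, which passed the adjusted threshold between the genotypes in progenitors, and for both Runx1 starts, since the Runx1 probes have different target transcripts. The GC boxes of either strand are in capitals and each window is read 5′ to 3′ along its gene. The positions are chr8:105170424-105170673, plus strand for Cbfb; chr19:46039622-46039871, minus strand for Ldb1; chr5:107725806-107726055, minus strand for Gfi1; chr16:92826075-92826324, minus strand and chr16:92697330-92697579, minus strand for the Runx1 starts.
Cbfb: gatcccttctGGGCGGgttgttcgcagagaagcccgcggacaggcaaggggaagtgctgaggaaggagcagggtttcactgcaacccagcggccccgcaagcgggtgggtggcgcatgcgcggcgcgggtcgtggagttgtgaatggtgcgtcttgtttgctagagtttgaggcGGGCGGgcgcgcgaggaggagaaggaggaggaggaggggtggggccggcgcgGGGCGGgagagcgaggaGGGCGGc
Ldb1, second start: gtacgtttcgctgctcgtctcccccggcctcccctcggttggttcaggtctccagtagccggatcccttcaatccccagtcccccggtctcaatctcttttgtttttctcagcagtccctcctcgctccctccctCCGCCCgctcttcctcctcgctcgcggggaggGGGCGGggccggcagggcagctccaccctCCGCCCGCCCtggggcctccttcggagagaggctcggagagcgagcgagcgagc
Gfi1, first start: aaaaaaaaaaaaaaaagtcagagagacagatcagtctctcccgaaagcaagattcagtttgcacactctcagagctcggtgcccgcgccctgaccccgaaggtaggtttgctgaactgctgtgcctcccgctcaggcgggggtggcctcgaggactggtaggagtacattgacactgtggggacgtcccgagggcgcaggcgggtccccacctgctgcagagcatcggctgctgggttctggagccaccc
Runx1, first start: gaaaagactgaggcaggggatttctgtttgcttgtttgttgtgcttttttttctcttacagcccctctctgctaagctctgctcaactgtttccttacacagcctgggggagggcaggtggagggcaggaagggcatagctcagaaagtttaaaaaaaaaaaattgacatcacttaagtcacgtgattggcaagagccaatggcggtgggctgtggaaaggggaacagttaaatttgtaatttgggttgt
Runx1, second start: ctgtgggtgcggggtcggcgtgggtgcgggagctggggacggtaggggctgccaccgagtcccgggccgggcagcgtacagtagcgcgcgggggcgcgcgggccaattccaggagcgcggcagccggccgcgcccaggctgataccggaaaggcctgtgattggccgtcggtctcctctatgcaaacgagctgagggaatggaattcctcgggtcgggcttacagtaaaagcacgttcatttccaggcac

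Levels are the deposited normalized log2 intensities of a gene's probe, on which a difference of 1 is a 2-fold change, and they are compared between samples only, never between probes. A difference was called when the limma p was 0.01 or less and the change at least 2-fold, the thresholds of the study. The p adjusted by Benjamini-Hochberg over all 37154 genes is given beside it. In bulk RNA, fewer cells of a type and less RNA per cell cannot be told apart.

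**Figure D1:**
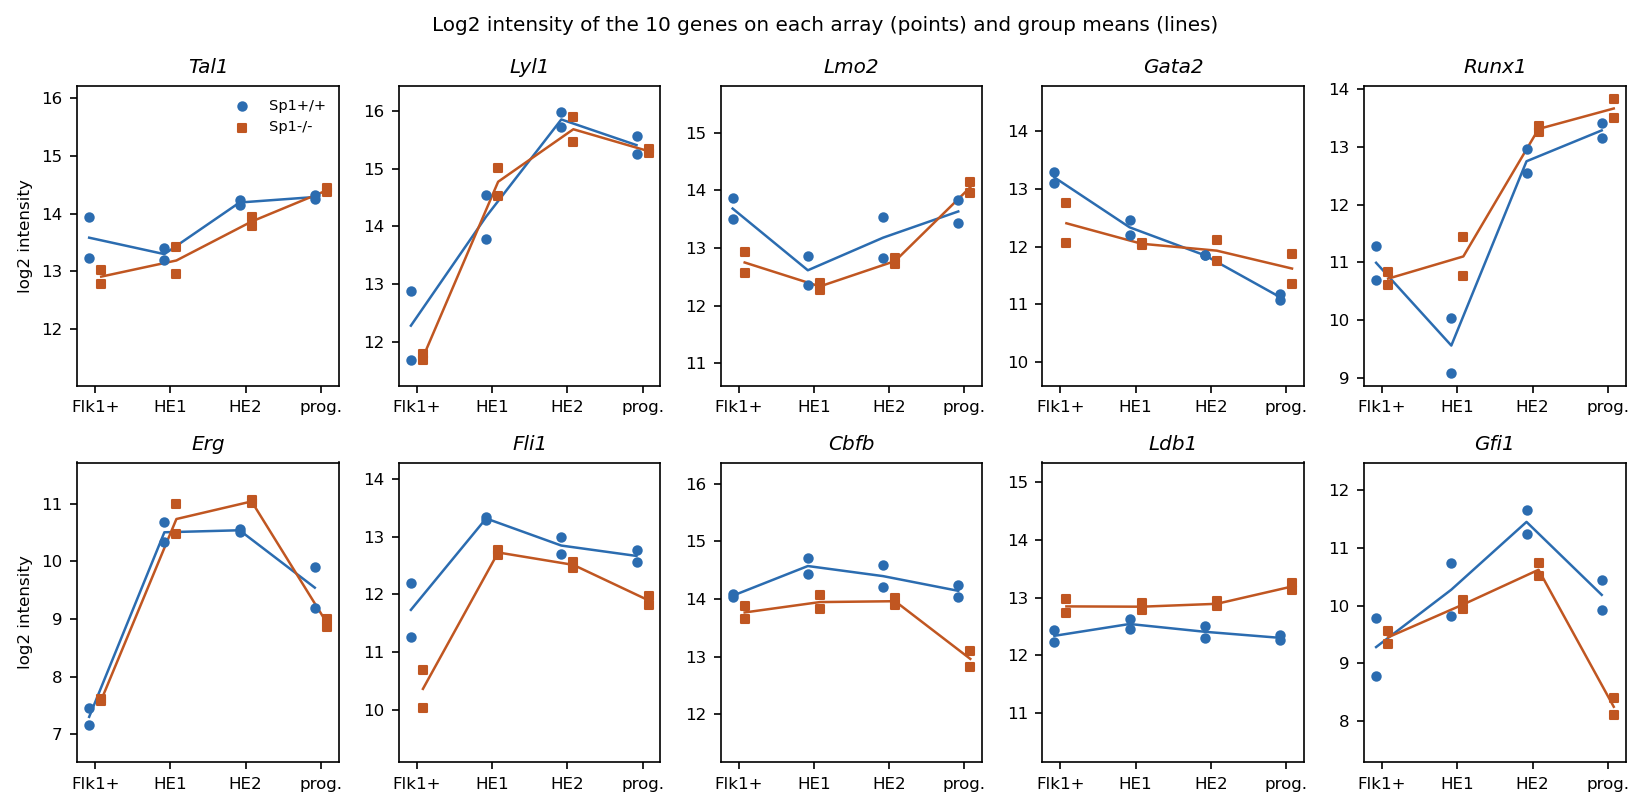
Log2 intensity of the 10 genes (vertical axes, all panels of the same height in log2 units) in the 4 populations (horizontal axes; prog., progenitors). Each point is 1 array, with blue circles for Sp1+/+ and orange squares for Sp1-/-, and lines join group means; Lyl1, Erg and Fli1 are lowest in Flk1+ cells of both genotypes, and Gfi1 of Sp1-/- progenitors lies at 8.10 and 8.39.

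The first comparisons follow each gene from population to population in Sp1+/+ cells. From Flk1+ cells to HE1, 5 of the 10 genes were called, against 8.56% of all genes. Lyl1, Erg and Fli1 rose, and Lmo2 and Runx1 fell. From HE1 to HE2, 3 of the 10 were called (3.32% of all genes), namely Lyl1, Runx1 and Gfi1, and all 3 rose. From HE2 to progenitors, 1 of the 10 was called (1.75% of all genes), and this was Gfi1, which fell.

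Tal1, without which no blood forms in the mouse embryo, had no called step in Sp1+/+ cells. It was at 13.23 and 13.94 in Flk1+ cells, 13.40 and 13.20 in HE1, 14.24 and 14.15 in HE2, then 14.25 and 14.33 in progenitors. The early populations overlapped each other and lay below HE2 and progenitors. The rise from HE1 to HE2 was 0.90 on the log2 scale (SE 0.21, limma adjusted p = 0.0187) and was not called, as it was under 2-fold. Tal1 in Sp1-/- cells was at 12.79 and 13.03, 12.96 and 13.42, 13.78 and 13.95, and 14.44 and 14.37 in the same order. Its order of levels there was Flk1+ cells, HE1, HE2 and progenitors, with Flk1+ cells and HE1 overlapping, and the lowest and highest means were 2.82-fold apart, against 1.99-fold in Sp1+/+ cells.

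Lyl1, the other helix-loop-helix factor, had a much wider range, 11.9-fold between its lowest and highest group means in Sp1+/+ cells and 15.5-fold in Sp1-/- cells. In Sp1+/+ cells it was at 11.68 and 12.88 in Flk1+ cells, 14.55 and 13.79 in HE1, 15.99 and 15.72 in HE2, then 15.56 and 15.26 in progenitors. Populations next to each other in level did not overlap. Lyl1 rose 3.71-fold to HE1 (log2 change 1.89, SE 0.35, limma adjusted p = 0.00198) and a further 3.22-fold to HE2 (1.69, SE 0.35, limma adjusted p = 0.0108). In Sp1-/- cells it was at 11.78 and 11.68, 14.53 and 15.02, 15.47 and 15.90, and 15.27 and 15.34. The rise to HE1 was 8.25-fold there (3.05, SE 0.35, limma adjusted p = 6.4e-05), and the following change to HE2 (0.91, SE 0.35, limma adjusted p = 0.105) was not called. The difference between the genotypes in the rise to HE1 was 1.16 (SE 0.50, limma adjusted p = 0.356) and was not called.

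Lmo2, the bridging LIM protein, was lowest in HE1 in both genotypes. Its Sp1+/+ arrays read 13.51 and 13.86 in Flk1+ cells, 12.36 and 12.87 in HE1, 12.82 and 13.54 in HE2, then 13.44 and 13.83 in progenitors. Every population overlapped its neighbor in the order of level. Lmo2 fell 2.10-fold from Flk1+ cells to HE1 (log2 change -1.07, SE 0.25, limma adjusted p = 0.00754). This call was lost without Flk1+ replicate 2 (-0.90) or without HE1 replicate 1 (-0.82). Its Sp1-/- arrays read 12.57 and 12.93, 12.27 and 12.40, 12.73 and 12.82, and 14.15 and 13.96, and progenitors stood above all other Sp1-/- populations. The rise of 2.43-fold from HE2 to progenitors (1.28, SE 0.25, limma adjusted p = 0.00544) was called.

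Gata2, the zinc-finger member, had a lower mean in each successive Sp1+/+ population. It was at 13.10 and 13.30 in Flk1+ cells, 12.21 and 12.46 in HE1, 11.85 and 11.85 in HE2, then 11.18 and 11.07 in progenitors. No populations overlapped, and the highest and lowest means were 4.21-fold apart. No single step reached 2-fold, the largest being -0.87 from Flk1+ cells to HE1 (SE 0.22, limma adjusted p = 0.0138). In Sp1-/- cells, at 12.06 and 12.75, 12.03 and 12.07, 12.11 and 11.75, and 11.88 and 11.36, every population overlapped its neighbor in level, and the means were 1.72-fold apart.

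Ldb1, the dimerizing partner of LMO2, was nearly level across populations. Its group means were 1.18-fold apart in Sp1+/+ cells and 1.27-fold in Sp1-/- cells, and no step was called in either genotype. Its arrays ran from 12.24 to 12.63 in Sp1+/+ cells and from 12.73 to 13.25 in Sp1-/- cells, so the genotypes did not overlap even across populations.

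Runx1 fell before it rose in Sp1+/+ cells. It was at 10.7 and 11.28 in Flk1+ cells, 10.03 and 9.08 in HE1, 12.96 and 12.54 in HE2, then 13.16 and 13.41 in progenitors. HE1 was below every other population, and no populations overlapped. The fall to HE1 was 2.70-fold (log2 change -1.44, SE 0.32, limma adjusted p = 0.00583), and its call was lost without Flk1+ replicate 2 (-1.15) or without HE1 replicate 2 (-0.96). The rise from HE1 to HE2 was 9.16-fold (3.20, SE 0.32, limma adjusted p = 0.000219). Runx1 in Sp1-/- cells was at 10.60 and 10.83, 10.76 and 11.44, 13.36 and 13.26, and 13.83 and 13.50. Flk1+ cells and HE1 overlapped there, and the change between them was 0.39 (SE 0.32, limma adjusted p = 0.43). The rise to HE2 was 4.63-fold (2.21, SE 0.32, limma adjusted p = 7e-04).

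Cbfb, the RUNX partner that does not touch DNA, stayed between 14.03 and 14.71 on all Sp1+/+ arrays, where every population overlapped its neighbor in level. From Flk1+ cells to HE1 it rose there by 0.515 (SE 0.16, limma adjusted p = 0.0346), without overlap. This rise was under 2-fold and not called. In Sp1-/- cells it was at 13.65 and 13.88 in Flk1+ cells, 14.06 and 13.83 in HE1, 13.90 and 14.02 in HE2, then 12.82 and 13.10 in progenitors. The progenitor arrays stood apart below the other populations. The fall from HE2 was 2.00-fold (log2 change -1, SE 0.16, limma adjusted p = 0.0017), exactly at the fold threshold, and the call was lost without HE2 replicate 2 (-0.94) or without progenitor replicate 1 (-0.86).

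Gfi1, the repressor downstream of RUNX1, had its highest mean in HE2 in both genotypes. Its Sp1+/+ arrays read 8.78 and 9.78 in Flk1+ cells, 10.73 and 9.82 in HE1, 11.66 and 11.24 in HE2, then 10.44 and 9.93 in progenitors. HE2 stood above the rest, and HE1 and progenitors overlapped. The rise from HE1 to HE2 was 2.26-fold (log2 change 1.18, SE 0.34, limma adjusted p = 0.0524) and was no longer called without HE1 replicate 2 (0.72) or HE2 replicate 1 (0.97). The fall from HE2 to progenitors was 2.40-fold (-1.27, SE 0.34, limma adjusted p = 0.0836) and was no longer called without HE2 replicate 1 (-1.06) or progenitor replicate 2 (-1.01). Gfi1 in Sp1-/- cells was at 9.34 and 9.56, 10.10 and 9.94, 10.73 and 10.51, and 8.10 and 8.39. Progenitors were there the lowest population, and no populations overlapped. The fall from HE2 was 5.19-fold (-2.38, SE 0.34, limma adjusted p = 0.000933).

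Erg, the first of the ETS factors, had the largest rise of the 10 genes from Flk1+ cells to HE1 in Sp1+/+ cells. It was at 7.16 and 7.45 in Flk1+ cells, 10.33 and 10.68 in HE1, 10.57 and 10.51 in HE2, then 9.90 and 9.19 in progenitors. Flk1+ cells were far below the rest, and HE1 and HE2 overlapped. The rise was 9.19-fold (log2 change 3.20, SE 0.22, limma adjusted p = 2.15e-06). From HE2 to progenitors Erg changed by -0.995 (SE 0.22, limma adjusted p = 0.0397), just under 2-fold, and this change was called with an offset of 16, with no background correction and with the scaled processed signal. In Sp1-/- cells it was at 7.61 and 7.58, 10.48 and 10.99, 11.07 and 11.01, and 8.87 and 9.0, and no populations overlapped. Erg rose 8.82-fold to HE1 there (3.14, SE 0.22, limma adjusted p = 2.25e-06) and fell 4.30-fold from HE2 to progenitors (-2.11, SE 0.22, limma adjusted p = 0.000138). A second, dimmer Erg probe gave the same signs with smaller values, 1.77 and 2.04 for the rise in Sp1+/+ and Sp1-/- cells and -0.79 and -1.57 for the fall.

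Fli1, the other ETS factor, was lowest in Flk1+ cells and highest in HE1 in both genotypes. Its Sp1+/+ arrays read 11.26 and 12.20 in Flk1+ cells, 13.34 and 13.29 in HE1, 12.69 and 13.00 in HE2, then 12.77 and 12.56 in progenitors. HE2 and progenitors overlapped. Fli1 rose 3.0-fold to HE1 (log2 change 1.59, SE 0.27, limma adjusted p = 0.0011). Its Sp1-/- arrays read 10.03 and 10.69, 12.77 and 12.68, 12.56 and 12.46, and 11.82 and 11.97, with no overlap. The rise was 5.15-fold there (2.37, SE 0.27, limma adjusted p = 5.83e-05).

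**Figure D2:**
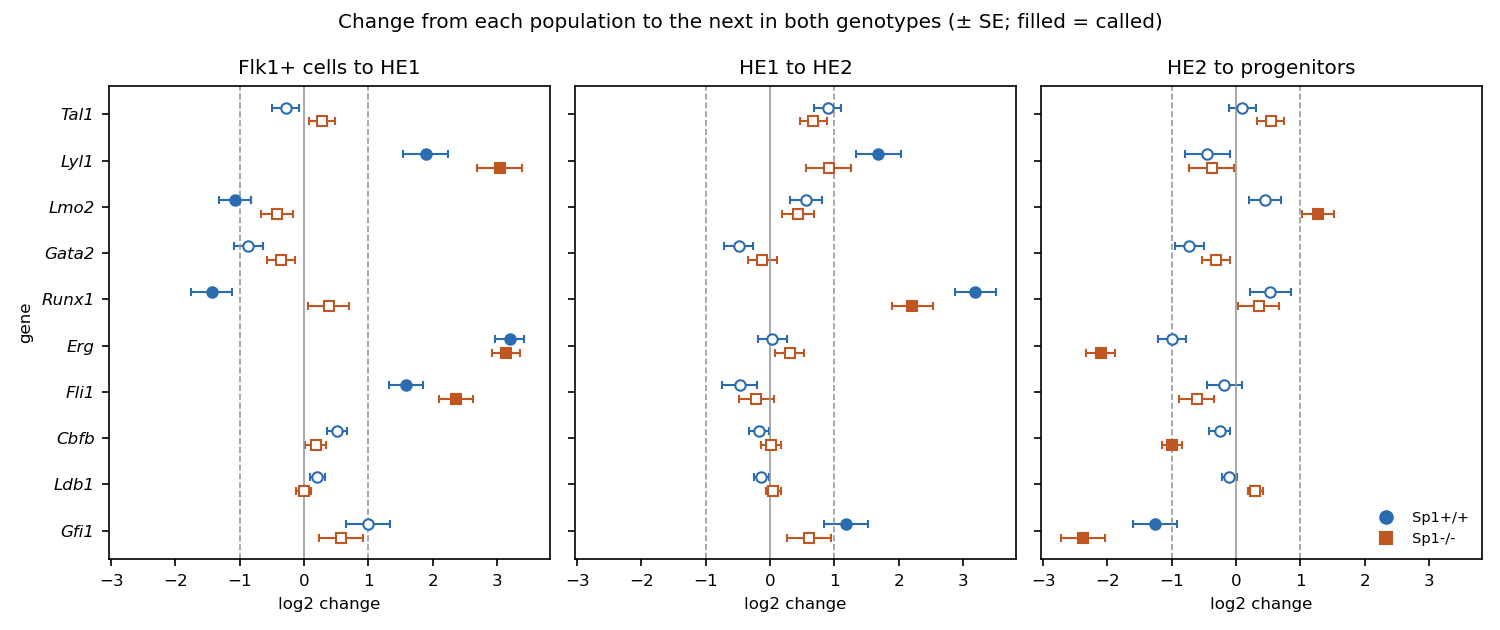
Log2 change of each gene (horizontal axes) from one population to the next in Sp1+/+ (blue circles) and Sp1-/- cells (orange squares). Bars are the SE of the limma fit, filled symbols are called and dashed lines mark 2-fold; Runx1 fell from Flk1+ cells to HE1 in Sp1+/+ cells (-1.44) and changed by 0.39 in Sp1-/- cells.

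In Sp1-/- cells, 3 of the 10 genes were called from Flk1+ cells to HE1 (9.53% of all genes), namely Lyl1, Erg and Fli1, which all rose. From HE1 to HE2, Runx1 was the 1 called (5.62% of all genes). From HE2 to progenitors, 4 of the 10 were called (5.01% of all genes), of which Lmo2 rose and Erg, Cbfb and Gfi1 fell. The plot of changes between populations shows both genotypes side by side. A step called in 1 genotype and not in the other does not show a difference between them, which is tested further on.

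The next comparisons set Sp1-/- against Sp1+/+ cells within a population. The same fit and thresholds were used. In Flk1+ cells, 1 of the 10 genes was called, against 1.66% of all genes in either direction, and this was Fli1. At an adjusted p of 0.05 or less with no fold threshold, 3 of the 10 passed (6.98% of all genes), namely Fli1 and Lmo2, which were lower, and Ldb1, which was higher. In 7 of the 10 genes the arrays of the genotypes did not overlap, 5 of them lower and 2 higher in Sp1-/- cells. Such separation was common with 2 arrays a group and held for 51.6% of all genes.

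Fli1 was at 11.26 and 12.20 in Sp1+/+ Flk1+ cells and at 10.03 and 10.69 in Sp1-/- Flk1+ cells. Both Sp1-/- arrays were below both controls, and the controls were themselves almost 1 log2 unit apart. The fall was 2.58-fold (log2 change -1.37, SE 0.27, limma adjusted p = 0.0121), and the call was lost without Sp1+/+ Flk1+ replicate 2 (-0.90). Lmo2 changed by -0.94 (SE 0.25, limma adjusted p = 0.0463), just under 2-fold, and its arrays did not overlap. Gata2 changed by -0.80 (SE 0.22, limma adjusted p = 0.0589) and Tal1 by -0.68 (SE 0.21, limma adjusted p = 0.085), again with no overlap. Ldb1 was 1.42-fold higher (0.51, SE 0.12, limma adjusted p = 0.0263). The remaining changes ran from -0.55 for Lyl1 to 0.29 for Erg. On the second Erg probe the change had the other sign (-0.215, not called), and the genotypes overlapped. The median of the 10 genes was -0.42, beside 0.01 over all genes. The count here depended on single arrays of both genotypes. Without Sp1+/+ Flk1+ replicate 1 it was 4 of 10, with Tal1 (-1.03), Lyl1 (-1.15) and Lmo2 (-1.11) called as well, and without Sp1+/+ Flk1+ replicate 2 it was 0. Without Sp1-/- Flk1+ replicate 2 it was 3, with Lmo2 (-1.11) and Gata2 (-1.14) called as well.

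In HE1, 1 of the 10 genes was called (2.11% of all genes), and this was Runx1. It was at 10.03 and 9.08 in Sp1+/+ and at 10.76 and 11.44 in Sp1-/- HE1, so that both Sp1-/- arrays were above both controls. The level was 2.92-fold higher (log2 change 1.55, SE 0.32, limma adjusted p = 0.0135). The call held when any of the 16 arrays was left out (1.07 to 2.02), and it was lost when only the HE1 arrays were fitted (p above 0.01). Its partner Cbfb was lower, at 14.43 and 14.71 in Sp1+/+ and at 14.06 and 13.83 in Sp1-/- HE1. The change of Cbfb was -0.63 (SE 0.16, limma adjusted p = 0.0321), so 2 of the 10 genes passed the adjusted threshold (9.83% of all genes). Fli1 changed by -0.59 (SE 0.27, limma adjusted p = 0.21) and Lyl1 by 0.61 (SE 0.35, limma adjusted p = 0.338), while the other 6 lay between -0.29 and 0.30. The arrays of the genotypes did not overlap in 5 of the 10 genes, beside 45% of all genes.

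The array holds a second, dimmer Runx1 probe, whose target is another Runx1 transcript. On it Runx1 was at 9.05 and 8.18 in Sp1+/+ HE1 and at 9.31 and 9.56 in Sp1-/- HE1. The genotypes did not overlap here either, but the difference was 0.82 (SE 0.31) and was not called. Both probes fell from Flk1+ cells to HE1 in Sp1+/+ cells, the second by 1.69 on the log2 scale. The probes differed in sign in Sp1-/- cells, with 0.39 for the brighter probe and -0.78 for the second, neither called. Both rose from HE1 to HE2 in both genotypes, the second by 3.01 in Sp1+/+ and 2.63 in Sp1-/- cells.

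**Figure D3:**
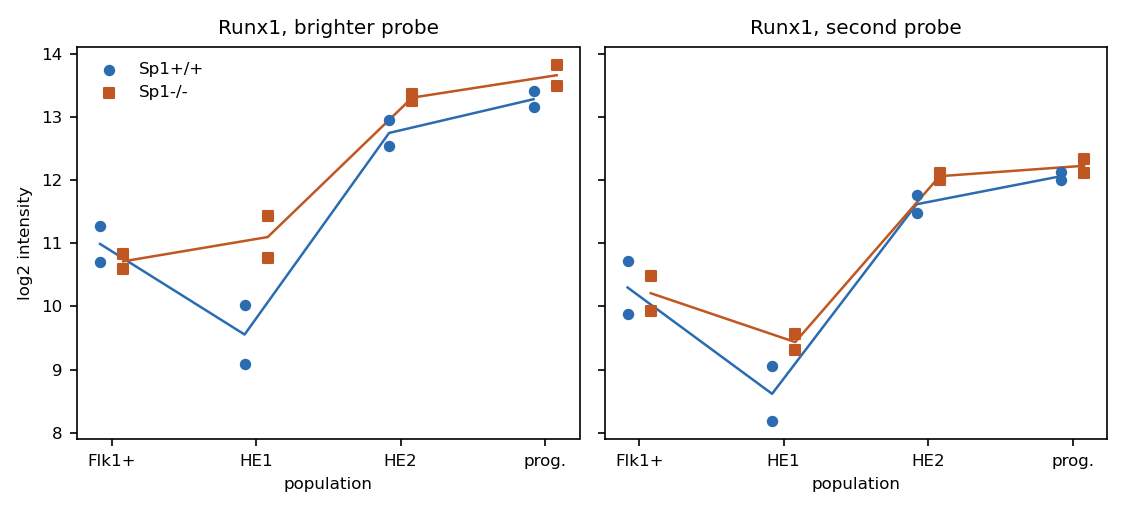
Log2 intensity of the brighter (left) and the second Runx1 probe (right) on each array in the 4 populations (prog., progenitors), with blue circles for Sp1+/+, orange squares for Sp1-/- and lines through group means. In HE1 the Sp1-/- arrays lie above the Sp1+/+ arrays on both probes, by 1.55 and 0.82 on average, and the step from Flk1+ cells to HE1 in Sp1-/- cells is 0.39 on the left and -0.78 on the right.

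In HE2, 0 of the 10 genes were called by limma (1.96% of all genes), and 4 had an unadjusted p under 0.05. The arrays of the genotypes did not overlap in 7 of the 10, beside 45.4% of all genes. Ldb1 alone passed the adjusted threshold (5.68% of all genes), at 12.31 and 12.51 in Sp1+/+ and 12.85 and 12.94 in Sp1-/- HE2 (1.40-fold higher, log2 change 0.49, SE 0.12, limma adjusted p = 0.0369). Gfi1 changed by -0.83 (SE 0.34, limma adjusted p = 0.228), Runx1 by 0.56 and Erg by 0.50, and the genotypes did not overlap in any of these. The other 6 genes lay between -0.44 and 0.08.

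In progenitors, 2 of the 10 genes were called (4.12% of all genes), and both Cbfb and Gfi1 fell. Gfi1 was at 10.44 and 9.93 in Sp1+/+ and at 8.10 and 8.39 in Sp1-/- progenitors. Its Sp1-/- arrays were lower than those of every other population and genotype. The fall was 3.84-fold (log2 change -1.94, SE 0.34, limma adjusted p = 0.0034). Cbfb was at 14.24 and 14.04 in Sp1+/+ and at 12.82 and 13.10 in Sp1-/- progenitors, again below all other groups. Its fall was 2.27-fold (-1.18, SE 0.16, limma adjusted p = 0.000632). Both calls held when any of the 16 arrays was left out, with -2.20 to -1.69 for Gfi1 and -1.32 to -1.04 for Cbfb.

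Ldb1 was at 12.26 and 12.35 in Sp1+/+ and at 13.14 and 13.25 in Sp1-/- progenitors, without overlap. It was 1.85-fold higher (log2 change 0.89, SE 0.12, limma adjusted p = 0.000593), so 3 of the 10 genes passed the adjusted threshold (13.1% of all genes), 1 of them without reaching 2-fold. Of the ETS factors, Fli1 changed by -0.77 (SE 0.27, limma adjusted p = 0.0928) and Erg by -0.61 (SE 0.22, limma adjusted p = 0.107). Gata2 changed by 0.50 (SE 0.22, limma adjusted p = 0.192), Lmo2 by 0.42 and Runx1 by 0.38. Tal1 (0.12) and Lyl1 (-0.11) showed little difference between group means. In 9 of the 10 genes the genotypes did not overlap, 5 higher and 4 lower in Sp1-/- progenitors, beside 62.5% of all genes. The median of the 10 was 0.01, beside 0.02 over all genes.

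**Figure D4:**
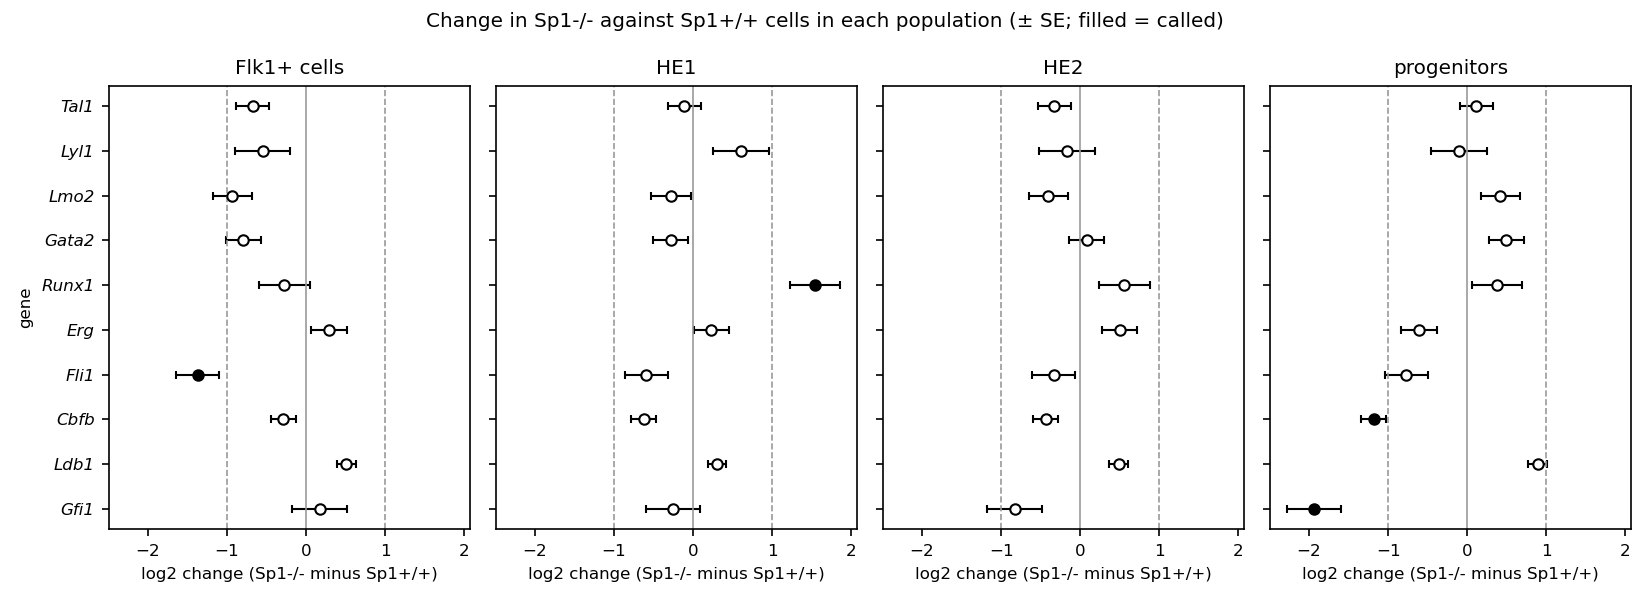
Log2 change of each gene in Sp1-/- against Sp1+/+ cells (horizontal axes) in each population. Points are the difference of means of 2 arrays per genotype with the SE of the limma fit, filled points are called and dashed lines mark 2-fold; Fli1 is called in Flk1+ cells (-1.37), Runx1 in HE1 (1.55), and Cbfb (-1.18) and Gfi1 (-1.94) in progenitors.

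Averaged over the 4 populations, 0 of the 10 genes were called by limma (1.3% of all genes), since none reached 2-fold, and 7 had an unadjusted p under 0.05. At an adjusted p of 0.05 or less, 5 of the 10 passed, beside 26.2% of all genes. Cbfb (log2 change -0.63, SE 0.08, limma adjusted p = 0.000179), Fli1 (-0.77, SE 0.14, limma adjusted p = 0.00168) and Gfi1 (-0.71, SE 0.17, limma adjusted p = 0.00997) were lower. Ldb1 (0.55, SE 0.06, limma adjusted p = 6.54e-05) and Runx1 (0.55, SE 0.16, limma adjusted p = 0.0247) were higher. On the second Runx1 probe the mean change was 0.335 (SE 0.154, limma p adjusted over all probes = 0.156) and did not pass. The group means of Fli1 and Cbfb were lower and those of Ldb1 higher in 4 of 4 populations, and Runx1 was higher in 3. Gfi1 was lower in 3, most in progenitors (-1.94), and higher in Flk1+ cells (0.17). As slide follows genotype, a shift shared by all populations is also a shift between slides.

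Whether the effect of the Sp1 mutation differed between successive populations was tested as a difference of differences. From Flk1+ cells to HE1, 1 of the 10 genes was called (1.6% of all genes), and this was Runx1, whose effect went from -0.28 in Flk1+ cells to 1.55 in HE1. The difference was 1.82 (SE 0.45, limma adjusted p = 0.0959), and the call was lost without Sp1+/+ Flk1+ replicate 2 (1.53) and with the second Runx1 probe (0.91). From HE1 to HE2, 0 of the 10 were called by limma (0.743% of all genes) and 0 had an unadjusted p under 0.05, and the largest difference was that of Runx1 (-0.99, SE 0.45). From HE2 to progenitors, 1 of the 10 was called (1.6% of all genes), and this was Erg, whose effect went from 0.50 to -0.61. The difference was -1.11 (SE 0.32, limma adjusted p = 0.181), and it lost its call in 6 of the 16 fits that left out 1 array, with values from -1.47 to -0.76. Gfi1 had the same size of difference with a larger error (-1.11, SE 0.49, limma adjusted p = 0.444), and Cbfb had -0.75 (SE 0.23, limma adjusted p = 0.215). None of the 10 genes passed an adjusted p of 0.05 in any of the 3 tests (0.947%, 0.102% and 0.783% of all genes did).

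The wider network was followed in 52 further genes in 7 lists of relatives, partners and other regulators of blood formation, all of which were measured. In Flk1+ cells 3 of the 52 were called higher and 1 lower, and in HE1 it was 1 higher and 2 lower. In progenitors 2 were called higher and 5 lower. By limma 0 of the 52 were called in HE2, where 16 had an unadjusted p under 0.05 and 1 higher and 4 lower genes had an adjusted p of 0.05 or less. At that adjusted threshold 4 of the 52 were higher and 2 lower in Flk1+ cells, 1 higher and 6 lower in HE1. In progenitors 2 were higher and 10 lower at it. The shares of all genes called or passing the adjusted threshold were those given above. The median of the 52 was -0.12 in progenitors and between -0.10 and -0.01 in the other populations.

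Among the E proteins, the DNA-binding partners of TAL1, and the Id proteins that sequester them, 2 of 7 genes were called in progenitors, both lower. Id1 was at 12.43 and 11.90 in Sp1+/+ and at 10.81 and 11.17 in Sp1-/- progenitors (log2 change -1.18, limma adjusted p = 0.00387). Id3 was at 11.52 and 10.44 in Sp1+/+ and at 9.35 and 9.27 in Sp1-/- progenitors (-1.67, limma adjusted p = 0.0105). Neither overlapped between the genotypes, and no gene of this list was called in the other populations. In HE1, however, 2 genes of the list passed the adjusted threshold, both lower and under 2-fold. Id1 was among them (-0.815, limma adjusted p = 0.0351).

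Among 8 LIM-domain and LDB1-complex genes, Ldb2 and Lmo1 were called. Ldb2, the paralog of Ldb1, was at 7.76 and 7.09 in Sp1+/+ and 9.02 and 9.21 in Sp1-/- Flk1+ cells (1.69, limma adjusted p = 0.0259). In progenitors the order was turned, with 8.80 and 7.70 in Sp1+/+ and 6.23 and 6.68 in Sp1-/- cells (-1.80, limma adjusted p = 0.0111), where 1 of the 2 Sp1-/- arrays was not well above background. Ldb1 was thus higher in 4 of 4 populations while its paralog moved both ways. Lmo1, a relative of Lmo2, was at 7.84 and 7.96 in Sp1+/+ and 6.68 and 6.53 in Sp1-/- HE1 (-1.30, limma adjusted p = 0.00506). Lmo1 also passed the adjusted threshold, under 2-fold, in HE2 (-0.965, limma adjusted p = 0.025) and progenitors (-0.955, limma adjusted p = 0.0139). Neither Sp1-/- HE2 array was well above background for it.

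Among 4 GATA and FOG genes, Gata3 was lower in 2 populations. It was at 12.59 and 12.32 in Sp1+/+ and 11.10 and 11.40 in Sp1-/- Flk1+ cells (-1.21, limma adjusted p = 0.0051). In progenitors it was at 9.31 and 8.55 in Sp1+/+ and 7.08 and 7.04 in Sp1-/- cells (-1.87, limma adjusted p = 0.000144). The genotypes were clearly separate in both. The Gata2 change was -0.80 in Flk1+ cells and 0.50 in progenitors, neither called. The difference between these populations was not tested.

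Among 5 RUNX and ETO genes, Runx1t1, which encodes the corepressor ETO, was higher in the same populations. It was at 8.78 and 9.10 in Sp1+/+ and 10.04 and 10.28 in Sp1-/- Flk1+ cells (1.22, limma adjusted p = 0.0103). In progenitors it was at 8.90 and 8.79 in Sp1+/+ and 10.53 and 10.26 in Sp1-/- cells (1.55, limma adjusted p = 0.00125). No other gene of this list was called between the genotypes.

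Among 10 further ETS factors, Ets2 and Elf4 were called. Ets2 was at 14.74 and 14.53 in Sp1+/+ and 13.16 and 13.33 in Sp1-/- HE1 (-1.39, limma adjusted p = 0.00192), and like Fli1 its mean was lower in all 4 populations. Elf4 was higher in Flk1+ cells, at 7.72 and 7.24 in Sp1+/+ and 8.46 and 8.56 in Sp1-/- cells (1.03, limma adjusted p = 0.0318). Among 6 genes of the GFI1 group, its paralog Gfi1b was called higher in HE1, at 9.74 and 9.10 in Sp1+/+ and 10.09 and 10.94 in Sp1-/- cells (1.09, limma adjusted p = 0.0717). In progenitors, where Gfi1 fell, Gfi1b was at 13.49 and 13.88 in Sp1+/+ and 14.47 and 14.57 in Sp1-/- cells, which was not called.

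Among 12 other regulators, Sox18, an endothelial factor, was called lower in progenitors, at 10.44 and 9.44 in Sp1+/+ and 6.86 and 7.21 in Sp1-/- cells (-2.91, limma adjusted p = 0.000667), and in the mean of all populations (-1.11). Klf1, the master regulator of red cells, was called higher in progenitors, at 11.05 and 12.46 in Sp1+/+ and 13.66 and 13.65 in Sp1-/- cells (1.90, limma adjusted p = 0.0574). Sox18 was the only 1 of the 52 genes called in the mean of the 4 populations.

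Cell type markers moved between the genotypes in every population, also in HE2, where no member was called. In HE2, 1 of 6 blood progenitor and 1 of 5 macrophage and granulocyte markers were called higher, and 1 of 5 cardiac markers lower. No red cell marker was called there, with a list median of 1.102. In progenitors, where Gfi1 and Cbfb fell, 5 of 8 smooth muscle and fibroblast markers were called lower in Sp1-/- cells (list median -3.49), and the log2 of their summed intensity was 17.12 to 17.59 in Sp1+/+ and 13.63 to 13.74 in Sp1-/- cells. Their marker Myh11 was not well above background in Sp1-/- progenitors. Of 8 endothelial markers 4 were called lower (sum 15.09 to 15.84 against 13.99 to 14.31), with lower means for all 8, and Emcn was not well above background on either Sp1-/- array. Of 6 red cell markers 3 were called higher (18.05 to 19.26 against 20.06 to 20.14), as were 4 of 5 megakaryocyte markers (13.13 to 13.22 against 13.79 to 14.11), and every mean in both lists was higher. Of 5 cardiac markers 1 was called lower (sum 11.39 to 11.56 against 9.74 to 9.98). Csf1r, a macrophage receptor, was the 1 of 5 macrophage and granulocyte markers called higher (mean 11.94 in Sp1+/+ and 13.41 in Sp1-/- progenitors). The sum of that list was lower (15.03 to 15.33 against 14.85 to 14.89), with a list median of -0.13. The means of Mpo (14.9 and 13.96), Lyz2 and Adgre1 were lower in Sp1-/- progenitors, and that of Elane was higher. Of 6 blood progenitor markers, Ptprc was called higher (8.67 against 9.95) and Kit was called lower (13.05 against 11.82). The part of these differences in the results for the 10 genes was not tested.

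In HE1, where Runx1 was higher in Sp1-/- cells, 3 of 5 cardiac markers were called higher (sum 12.70 to 12.94 in Sp1+/+ and 13.78 to 14.75 in Sp1-/- cells). The largest of these rises was that of Actc1 (mean 10.25 in Sp1+/+ and 13.475 in Sp1-/- HE1), whose replicates were far apart (SD 1.301 and 1.068). The mean of Nkx2-5 was lower in Sp1-/- HE1 (11.68 and 10.82), and that of Myh6 hardly differed. The summed blood progenitor markers read 15.34 to 16.13 in Sp1+/+ and 14.35 to 14.74 in Sp1-/- HE1, with 1 of 6 called lower. That sum follows its brightest marker, Cd34 (mean 15.5 in Sp1+/+ and 13.98 in Sp1-/- HE1), whereas the means of Itga2b (10.61 and 11.05) and Itgb3 (10.45 and 11.15) were higher in Sp1-/- cells and the list's median difference was -0.24. Of 5 megakaryocyte markers 1 was called higher (9.66 to 10.61 against 10.67 to 10.73), and no red cell marker was called, although their sum ran from 12.34 to 16.17 on the Sp1+/+ arrays alone. In Flk1+ cells, where Fli1 fell, 2 of 5 cardiac markers were called higher and 1 was called lower (sum 11.05 to 11.44 against 12.94 to 13.12), and no endothelial marker was called (15.32 to 16.26 against 15.12 to 15.50). Their part in the results was not tested.

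**Figure D5:**
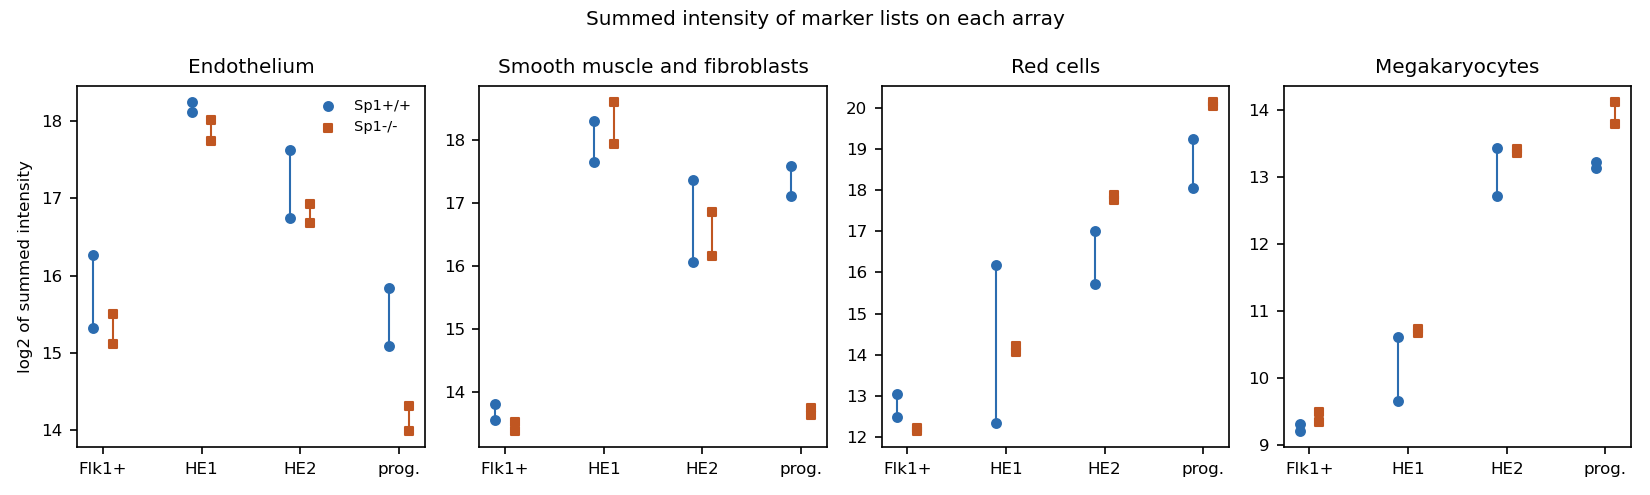
Log2 of the summed intensity (vertical axes, different ranges) of 4 marker lists on each array in the 4 populations (prog., progenitors), with blue circles for Sp1+/+, orange squares for Sp1-/- and a line between the 2 arrays of a group. In progenitors the endothelial and the smooth muscle and fibroblast sums are lower (13.63 to 13.74 against 17.12 to 17.59 for the latter) and the red cell and megakaryocyte sums higher in Sp1-/- cells.

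The genes most like each member were sought among 20101 genes with a symbol, by the root mean square difference of the log2 values over the 16 arrays after each gene was centered on its own mean. The arrays share genotype, population and slide, so likeness is a description only. Lyl1 was closest to Itga2b (0.38, against a spread of 1.503 of Lyl1 itself) and Samsn1 (0.39). Runx1 was closest to Nrip3 (0.44) and Cebpb (0.48), Erg to Emilin1 (0.30) and Gfi1 to Fam181b (0.48). Among the members, Tal1 and Lmo2 were the nearest pair (0.45), against spreads of 0.546 of Tal1 and 0.602 of Lmo2 themselves. Genes with a small spread are near each other by this measure, and Lmo2 was only at rank 1726 of the 20101 genes by nearness to Tal1.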

How the data were processed

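Total RNA of 16 samples was hybridized to one-color Agilent arrays (62976 spots, 59305 not controls). The authors deposited each array's scanner output (Feature Extraction 10.7.3.1 by the file headers, 10.7.1.1 by the submitters' processing notes) and a normalized log2 table, whose values were used here. The median intensities deposited for the same arrays, after limma's normexp correction (offset 50) and quantile normalization, matched the table to within 0.0258 on the log2 scale, whereas the stated offset of 16 differed by up to 1.63. The study's minimum of 6 on the log2 scale on at least 1 array kept 55595 of 55681 probes and so hardly filtered.

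Symbols came from a RefSeq gene table (20875 of 37932 target names), and 1 brightest probe stood for a gene. 20121 of the 37154 genes tested have a symbol. All contrasts came from 1 fit across all genes in limma 3.58.1 (R 4.3.3) on 8 group means, with 8 residual degrees of freedom. Spots well above background made up 67.0% to 77.14% of an array, and none was saturated.

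The genes named are the 10 members, cell type markers and the genes of 7 pathway lists called between genotypes. The lists cover E proteins and Id inhibitors, LIM-domain and LDB1-complex proteins, GATA and FOG, RUNX and ETO, ETS, the GFI1 group and other regulators. For some members, up to 2 of the genes most like them are named as well. Members and lists were chosen with earlier results of these data known. The comparison script was tested on simulated data. Alternatives covered background correction, scaling, filter, probe choice, block, arrays fitted, test, threshold and each array left out.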

Additional observations from a re-analysis of the deposited data

Results flagged for a closer look

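A pair of results was called at the unadjusted threshold in the test of the difference between successive populations. For Runx1, the Sp1-/- effect in HE1 minus that in Flk1+ cells was 1.82 on the log2 scale (SE 0.45, limma adjusted p = 0.0959). Both Sp1-/- arrays were above both controls in HE1 and within the range of the controls or below it in Flk1+ cells. For Erg, the effect in progenitors minus that in HE2 was -1.11 (SE 0.32, limma adjusted p = 0.181). Both Sp1-/- arrays were above both controls in HE2 and below both in progenitors. Neither passed an adjusted p of 0.05. With the second probe of the gene neither was called (0.91 for Runx1 and -0.775 for Erg).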

How the results depend on the processing

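Of 140 results (10 genes in 14 comparisons), 23 were called, and no called result reversed its sign in any of 12 alternatives or 16 fits without 1 array. In 48 cases an uncalled value changed sign. The counts of genes called that moved by over 1.5 times were these. The study analyzed its arrays with limma and names Student's t-test for comparing its Sp1+/+, Sp1-/- and rescue samples. That t-test has 2 arrays a group here. With it the count between genotypes was 0 in Flk1+ cells, 0 in HE1 and 0 in progenitors (from 1, 1 and 2). The count was 1, 0 and 0 for the successive steps in Sp1+/+ cells (from 5, 3 and 1). It was 0 for HE1 to HE2 in Sp1-/- cells (from 1). With only the arrays compared in the fit, it was 0 in Flk1+ cells, 0 in HE1, 0 for the difference between HE1 and Flk1+ cells, and 2 for that between progenitors and HE2, where it was 1. With the second brightest probe, it was 0 in HE1 and 0 for both differences of effect that had 1 call, and with the mean over probes 0 for that between progenitors and HE2. With the processed signal it was 2 in Flk1+ cells, 2 for HE2 to progenitors in Sp1+/+ cells and 0 for the difference between progenitors and HE2. The offset of 16 and no background correction each gave 2 for HE2 to progenitors in Sp1+/+ cells. With an adjusted p of 0.05 and no fold threshold, the counts were 3 in Flk1+ cells, 2 in HE1, 1 in HE2, 5 in the mean, 2 for HE1 to HE2 in Sp1-/- cells and 0 for both differences of effect, and with the 2-fold threshold as well 0 for those differences and 0 for HE2 to progenitors in Sp1+/+ cells. Smaller moves took progenitors to 3 and Flk1+ cells to HE1 in Sp1+/+ cells to at most 7.

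Without 1 array, counts ran from 0 to 4 in Flk1+ cells, 1 to 1 in HE1, and 0 to 0 in HE2, and for progenitors from 2 to 2. They ran from 4 to 5, 2 to 3 and 0 to 2 for the steps in Sp1+/+ cells, from 3 to 4 for HE2 to progenitors in Sp1-/- cells, and from 0 to 3, 0 to 1 and 0 to 1 for the differences of effect. The replicate numbers were not treated as pairing the samples, since the labels tie them to no shared culture and deviations of same-numbered arrays correlated between -0.174 and 0.503 over 28 pairs of groups, 11 of them above 0.1; all replicate 1 arrays were in slide column 1 and all replicate 2 arrays in column 2. With the replicate block every count stayed as it was (1 in Flk1+ cells, 1 in HE1, 0 in HE2, 2 in progenitors and 0 in the mean).

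Over all genes, the processed signal called 1109, 1604, 1415, 2465 and 1094 genes in Flk1+ cells, HE1, HE2, progenitors and the mean, against 615, 784, 729, 1530 and 482. It moved the median of all genes in HE1 from 0.01 to 0.116. Lower genes made up 48.2%, 38.3%, 47%, 57.1% and 57.4% of its calls in the same order. Among the calls from the deposited values they made up 52.8%, 53.8%, 60.4%, 63.3% and 68.9%. Without Sp1-/- HE1 replicate 1, 1742 genes were called in HE1, 43.3% of them lower, and without Sp1+/+ Flk1+ replicate 1, 934 in Flk1+ cells. The t-test called 176, 154, 230 and 568 genes in the 4 populations. The cause of these differences was not tested. With 2 arrays a group, SEs of the 10 genes between genotypes were 0.12 to 0.35 on the log2 scale.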
